A study of Mus musculus with 106 samples.

Results

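Heat shock proteins and their co-chaperones fold new proteins, hold and refold damaged ones, and pass those beyond repair to degradation. The genes described here are a set list of HSP70, HSP110, HSP90, chaperonin, small heat shock protein, DNAJ, heat shock factor and co-chaperone genes, found in the count table by mapping its Ensembl identifiers to gene symbols. All 42 listed genes were in the table, out of 55401 mouse genes counted, of which 21897 are protein-coding. All 42 also passed the filter on low counts (a mean count over 10 in the libraries of a fit) in each of the 23 comparisons made.

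HSP70 proteins bind exposed hydrophobic stretches of a client protein in cycles of ATP hydrolysis that DNAJ proteins start and HSP110 and BAG proteins help to end. HSP90 receives clients from HSP70 through adaptor proteins, small heat shock proteins hold unfolded clients without ATP, and heat shock factors switch many of these genes on under stress. In Huntington's disease, where a long polyglutamine stretch makes huntingtin aggregate, these proteins are known as binding partners of the expanded protein, and neurons are known for a weak heat shock response.

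The study profiled ribosome-bound mRNA of chosen neurons in mice with a knock-in allele of Huntington's disease (HD), heterozygous for an expanded CAG repeat (Hdh Q7/Q200), and in their Hdh Q7/Q7 littermates as controls. By the published methods, mice were killed at about 9 months of age and were on a 129S4 background. They carried 1 copy of a Cre driver and 1 copy of the RiboTag allele. RiboTag places an HA tag on the ribosomal protein Rpl22 in cells in which Cre has been active, and an antibody to HA then pulls the tagged ribosomes from a homogenate of flash-frozen tissue (an immunoprecipitation, IP). The drivers were vGluT2-IRES-Cre for glutamatergic neurons, Gad2-IRES-Cre for inhibitory neurons, PV-IRES-Cre for parvalbumin neurons and an SST Cre line for somatostatin neurons. The published methods name and describe the other lines only. Age, background and allele copies are thus not given there for SST mice by name, and SST controls are not known to be littermates. SST control IPs came from mice labelled BR or Z, and HD SST IPs from mice labelled BR. The tissue was the cerebrum without olfactory bulb for all 4 lines, and also the cerebellum for the vGluT2 and Gad2 lines. Total RNA of the same homogenates (input) was sequenced for part of the mice. The driver sets which cells are tagged, so that 1 IP mixes all cell types that ever expressed it, and PV IPs were pooled from duplicate precipitations.

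The table holds 106 libraries of 45 mice, 67 from IPs and 39 from total RNA. Control and HD IPs numbered 6 and 6 for cerebral Gad2, 6 and 5 for PV, 5 and 4 for SST, 6 and 6 for cerebral vGluT2, 6 and 6 for cerebellar Gad2, and 5 and 6 for cerebellar vGluT2. Total RNA groups held 3 libraries each, except 4 for SST controls and for both genotypes of the vGluT2 line in cerebellum. Total counts per library ran from 23256772 to 107753586 in IPs and from 21905221 to 62160033 in total RNA. Levels are given in CPM, counts scaled to library depth, after TMM scaling between libraries. Levels of different genes are compared only as CPM per kilobase of exon (CPM/kb).

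Most marker genes named here stood highest in the control IPs of their label. Purkinje cell markers led in cerebellar Gad2 IPs (Pcp2 at 1412 CPM, Calb1 at 3444 CPM) and the granule cell marker Gabra6 in cerebellar vGluT2 IPs (1271 CPM, against 136 CPM in cerebellar Gad2 IPs). Cerebral Gad2 IPs held the striatal receptor genes Drd1 and Drd2 at 145 and 153 CPM. Sst stood at 1326 CPM in SST IPs and Pvalb at 615 CPM in PV IPs, below its level in cerebellar Gad2 IPs (3715 CPM). Cerebral vGluT2 IPs carried Slc17a7 at 2061 CPM and Slc17a6 at 114 CPM beside Gad1 at 48.7 CPM. Slc17a6, the gene of the vGluT2 driver, did not set them apart from PV and SST IPs (117 and 106 CPM), and these held Slc17a7 at 830.1 and 785 CPM. Control PV and SST IPs held more astrocyte RNA than the other control IPs. The summed level of 10 astrocyte markers, led by Slc1a2, was 1435 to 1969 CPM in control PV and 1696 to 2885 CPM in control SST libraries. It was 545 to 1320 CPM in control cerebellar Gad2, 346 to 1195 CPM in control cerebral Gad2 and 637 to 1014 CPM in control cerebral vGluT2 libraries. In HD PV IPs, replicate 3 stood apart with 8 Purkinje cell markers summing to 4578 CPM and 8 granule cell markers to 755 CPM. With that library edgeR called 0 of the 42 genes between HD and control PV IPs (0.0340% of all genes called, 1 of the 42 at unadjusted p under 0.05, 0 called by DESeq2), and without it edgeR again called 0.

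In all 6 control IP groups the same 3 cytosolic chaperones stood highest per kilobase, in the same order. Hsp90ab1, the constitutive cytosolic HSP90, had a mean of 497 CPM/kb in SST IPs to 792 CPM/kb in cerebral vGluT2 IPs. Hspa8, the constitutive HSP70 that also strips clathrin from vesicles, followed with 340.2 to 612 CPM/kb. Hsp90aa1, the stress-inducible HSP90, came next with 310.2 to 512 CPM/kb, and for each of these genes the lowest and highest groups were SST and cerebral vGluT2. At the other end, the small heat shock protein gene Hspb1 ran from 0.467 CPM/kb in cerebellar vGluT2 to 12.8 CPM/kb in cerebellar Gad2 IPs, and the heat shock factor gene Hsf2 from 1.54 to 3.37 CPM/kb. The inducible HSP70 genes Hspa1a and Hspa1b stayed low in the 6 groups, between 1.46 and 6.89 CPM/kb. These neighbouring genes (Hspa1a at chr17:34969190-34972156 and Hspa1b at chr17:34956436-34959238, GRCm38) have nearly identical coding sequences, so that the division of counts between them is uncertain.

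**Figure D1:**
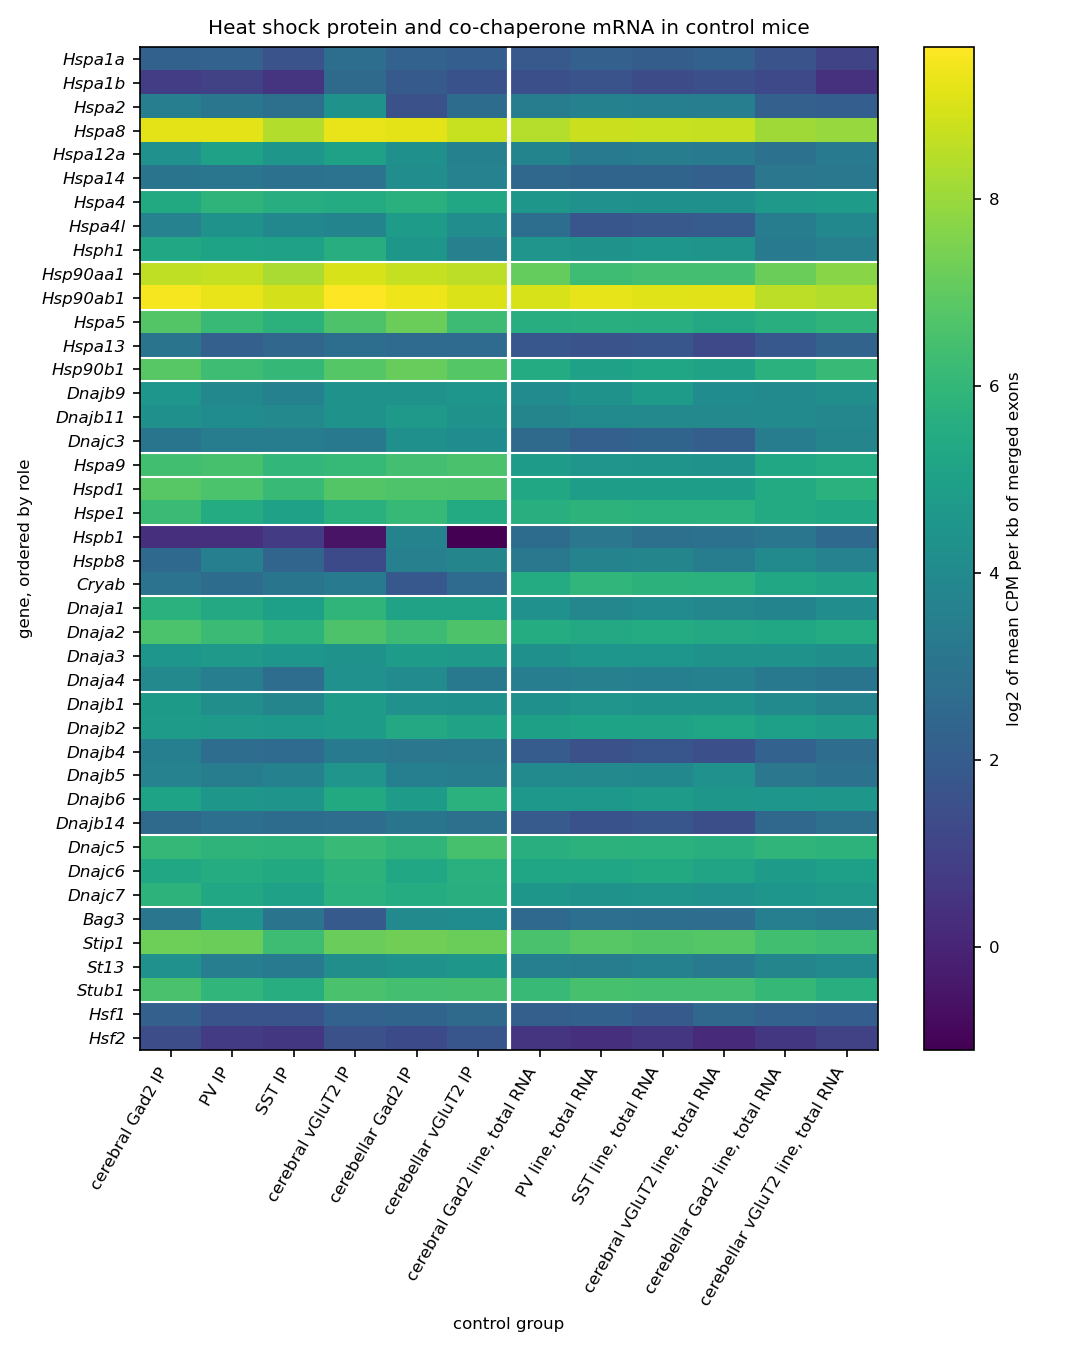
Heat map of the mean level of each of the 42 genes (vertical, grouped by role) in the 12 control groups (horizontal), coloured by log2 of mean CPM per kilobase. Hsp90ab1, Hspa8 and Hsp90aa1 are the brightest in the 6 IP groups, Cryab is brighter in every total RNA group (34.3 to 61.8 CPM/kb) than in any IP group (3.57 to 9.69 CPM/kb), and Hspb1 is bright among IPs in cerebellar Gad2.

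Together the 42 genes took 1.01% (SST) to 1.29% (cerebral vGluT2) of the counts of a library on average in control IPs, and 0.681% (cerebellum, Gad2 line) to 0.759% (cerebrum, Gad2 line) in control total RNA. Calls below are at a Benjamini-Hochberg adjusted p of 0.05 or less from edgeR's quasi-likelihood test, adjusted over all genes tested, and fold changes are log2 values with their standard error (SE). The number of libraries beside a test counts those of the first-named group that lie on the stated side of the other group's median. Between vGluT2 and Gad2 IPs of the cerebrum, edgeR called 9 of the 42 genes (6 higher and 3 lower in vGluT2 IPs), where 29.8% of 14433 genes were called. Between vGluT2 and Gad2 IPs of the cerebellum it called 19 (7 higher and 12 lower in vGluT2 IPs), where 56.4% of genes were. With an offset for transcript GC content per library the counts became 7 higher and 6 lower in cerebrum (5264 of 14433 genes called), and 5 higher and 15 lower in cerebellum (8129 of 13879). With HD libraries added, 16 members were called in cerebrum (12 higher and 4 lower, beside 6008 of 14477 genes). PV against SST IPs gave 12 called genes, all 12 higher in PV, where 18.2% of genes were called. Cerebellar against cerebral IPs gave 20 for Gad2 (51.1% of genes) and 21 for vGluT2 (63.2% of genes). The members' share of calls was below the share of all genes in the cerebral and cerebellar vGluT2 against Gad2 comparisons and in both comparisons of regions, and above it for PV against SST. These comparisons share control libraries, most cerebellar and cerebral IPs come from the same mice, and the values stand side by side.

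Cytosolic HSP70 genes differed most in the testis-enriched form Hspa2 and in the inducible Hspa1b. Control levels of Hspa2 were 46.6 (lowest), 52.5 (median) and 71.2 (highest) CPM in cerebral vGluT2, 21.4 (lowest), 31.3 (median) and 34.6 (highest) CPM in cerebral Gad2, and 4.61 (lowest), 8.91 (median) and 9.91 (highest) CPM in cerebellar Gad2 IPs. In the 5 cerebellar vGluT2 libraries it was 12.7, 14.1, 25.7, 20.1 and 13.9 CPM. Within each cell type, all cerebellar libraries lay below all cerebral ones, and within each region all vGluT2 libraries lay above all Gad2 ones. Hspa2 was lower in cerebellum in Gad2 IPs (log2 fold change -1.92 ± 0.19 (SE), adjusted p = 4.20e-07, 6 of 6 libraries) and in vGluT2 IPs (log2 fold change -1.72 ± 0.18, adjusted p = 1.97e-06, 5 of 5). It was higher in vGluT2 than in Gad2 IPs of cerebrum (log2 fold change 0.86 ± 0.13, adjusted p = 0.000110, 6 of 6) and of cerebellum (log2 fold change 1.10 ± 0.23, adjusted p = 0.000997, 5 of 5).

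Hspa1b stood at 11.3 (lowest), 18.6 (median) and 19.7 (highest) CPM in cerebral vGluT2 and 2.36 (lowest), 4.85 (median) and 9.28 (highest) CPM in cerebral Gad2 IPs, with no overlap. The vGluT2 libraries were thus all higher (log2 fold change 1.74 ± 0.25, adjusted p = 6.86e-05, 6 of 6), while the near-identical Hspa1a, at means of 20.4 and 13.9 CPM, did not pass the test (log2 fold change 0.54 ± 0.20, adjusted p = 0.0525, 6 of 6). It was called as higher by DESeq2, with its size factors, with HD libraries added and with the GC offset. In cerebellar vGluT2 IPs Hspa1b and Hspa1a were lower than in cerebral ones (log2 fold changes -1.06 ± 0.16 and -0.73 ± 0.12), and in cerebellar Gad2 IPs Hspa1b was higher than in cerebral ones (1.08 ± 0.27).

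Hspa14, an HSP70 that works at the ribosome on emerging chains, was higher in cerebellum in both cell types. Its levels were 61.5 (lowest), 72.2 (median) and 79.7 (highest) CPM in cerebellar and 29.0 (lowest), 32.3 (median) and 40.4 (highest) CPM in cerebral Gad2 IPs. The lowest cerebellar library lay above the highest cerebral one (log2 fold change 1.11 ± 0.10, adjusted p = 1.65e-07, 6 of 6), and vGluT2 IPs showed the same direction (log2 fold change 0.63 ± 0.09, adjusted p = 3.67e-05, 5 of 5). Part of its exons overlaps another protein-coding gene on the same strand, Gm45902, which had 10497 counts over all libraries against 149336 for Hspa14. The distant relative Hspa12a was lower in cerebellar than in cerebral vGluT2 IPs (112 against 305 CPM, log2 fold change -1.496 ± 0.15, adjusted p = 1.24e-06, 5 of 5), and Hspa8 was lower there too (-0.60 ± 0.16), with overlap between the groups. In cerebellum both were lower in vGluT2 than in Gad2 IPs (log2 fold changes -0.70 ± 0.19 for Hspa12a and -0.49 ± 0.14 for Hspa8), again with overlap. Hspa14 was lower in vGluT2 than in Gad2 IPs there (-0.52 ± 0.10), and in the cerebrum Hspa12a was higher in vGluT2 than in Gad2 IPs (0.71 ± 0.13).

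Among the HSP110 genes, whose products release ADP from HSP70 and help to pull aggregates apart, Hsph1 set cerebellar vGluT2 IPs apart. It was 53.8, 88.0, 74.4, 107 and 114 CPM in the 5 cerebellar vGluT2 libraries and 282 (lowest), 345 (median) and 415 (highest) CPM in cerebral vGluT2 libraries. Every cerebellar library was below every cerebral one (log2 fold change -2.05 ± 0.19, adjusted p = 5.65e-07, 5 of 5). Hsph1 was also lower in cerebellar vGluT2 than in cerebellar Gad2 IPs (mean 172 ± 20.7 CPM, SD, n = 6; log2 fold change -0.996 ± 0.18, adjusted p = 0.000224, 5 of 5) and in cerebellar than in cerebral Gad2 IPs (log2 fold change -0.75 ± 0.14, adjusted p = 0.000229, 6 of 6). Hspa4l went the other way in Gad2 IPs, with a mean of 324 ± 62.8 CPM in cerebellum and 148 ± 48.9 CPM in cerebrum (log2 fold change 1.12 ± 0.22, adjusted p = 0.000565, 6 of 6). It was lower in cerebellar vGluT2 than in cerebellar Gad2 IPs (-0.67 ± 0.17). Hspa4, the other HSP110 gene here, was not called by edgeR as designed in any of the 5 comparisons between cell types or regions, although DESeq2, the GC offset and added HD libraries called it between cerebellar vGluT2 and Gad2 IPs, and added HD libraries also between regions of Gad2 IPs and between PV and SST IPs (control means 219.7 to 321 CPM). Both cytosolic HSP90 genes were lower in cerebellar than in cerebral vGluT2 IPs (Hsp90ab1 -0.64 ± 0.13 without overlap, Hsp90aa1 -0.51 ± 0.16 with overlap).

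Of the 6 control IP groups, cerebellar Gad2, in which Purkinje cell transcripts lead, held the highest means of Hspa5, Hsp90b1, Dnajb11 and Dnajc3, 4 of the 6 members of the endoplasmic reticulum (ER). The other 2, Hspa13 and Dnajb9, had their highest means in cerebral Gad2 IPs (55.2 and 59.8 CPM, against 42.5 and 53.3 CPM in cerebellar Gad2). Hspa5 (BiP), the HSP70 of the ER and a regulator of its stress response, was 489.6 (lowest), 645 (median) and 801 (highest) CPM there and 294, 321, 314, 369.7 and 309 CPM in the 5 cerebellar vGluT2 libraries. The groups did not overlap (log2 fold change -1.01 ± 0.13, adjusted p = 7.75e-06, 5 of 5). Hsp90b1 (GRP94), the HSP90 of the ER, was also lower in cerebellar vGluT2 IPs (-0.35 ± 0.12), a call lost without cerebellar vGluT2 replicate 3 (-0.32). Dnajb11, a DNAJ partner of BiP, was lower as well (-0.27 ± 0.11), a call lost without cerebellar Gad2 replicate 1, 2 or 4 or cerebellar vGluT2 replicate 3 or 5 (-0.28 to -0.23).

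Dnajc3 (p58IPK), another DNAJ of the ER lumen, was called between regions and not between cell types, although in cerebellum it was with HD libraries added or with the GC offset. In Gad2 IPs it was 88.1 (lowest), 99.8 (median) and 115 (highest) CPM in cerebellum and 40.4 (lowest), 41.7 (median) and 52.6 (highest) CPM in cerebrum. All cerebellar libraries lay above all cerebral ones (log2 fold change 1.18 ± 0.10, adjusted p = 5.11e-08, 6 of 6), and vGluT2 IPs moved the same way (means 90.2 and 48.6 CPM, log2 fold change 0.84 ± 0.12, adjusted p = 3.56e-05, 5 of 5). Hspa5 was higher in cerebellum in Gad2 IPs (0.45 ± 0.14) and lower in cerebellum in vGluT2 IPs (-0.45 ± 0.11). Dnajb9, which assists the disposal of misfolded ER proteins, and Hspa13, an ER-associated HSP70 relative, were not called by edgeR as designed in any of the 5 comparisons, with control means of 31.4 to 59.8 and 31.6 to 55.2 CPM. Hspa13 was called between regions of Gad2 IPs by DESeq2, with its size factors, with the GC offset and with the mouse as a block, and between cerebral vGluT2 and Gad2 IPs with the GC offset. In a separate list of 25 ER stress genes, 23 were tested, and 3 were higher and 10 lower in cerebellar vGluT2 than in cerebellar Gad2 IPs (56.4% of all genes called, median log2 fold change -0.32, all genes 0.02). Examples are the calcium-binding chaperone gene Calr (-0.74 ± 0.12) and the degradation factor Sel1l (-0.87 ± 0.10) on the lower side, and the stress-induced Herpud1 (0.74 ± 0.11) on the higher side.

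Promoter windows for 33 of the 42 genes (250 bases before to 50 after a transcript start) were available from RefSeq on GRCm38.p6. Hspa8, Hspa9, Hspa13, Hsp90aa1, Hsp90ab1, Cryab, Hsf1, Dnajc5 and St13 had none. The ER stress element, searched as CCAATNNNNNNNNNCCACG and its reverse complement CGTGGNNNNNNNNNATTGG, was found in windows of 3 members, all of them ER chaperones with values given above, and in 0.119% of all 32851 windows. The stretches around these matches are printed 5′ to 3′ on the gene's strand, with the matched letters in capitals, and are shown because the 3 genes differed between cell types or regions. The Hspa5 stretch (chr2:34772020-34772048, + strand) overlaps an annotated Hspa5 exon, the Hsp90b1 stretch (chr10:86705511-86705664, - strand) holds 2 matches, 1 on each strand, and no exon, and the Dnajc3 stretch (chr14:118937782-118937881, + strand) holds 1 match and no exon. A match is a description of the letters and not a test of binding.
Hspa5: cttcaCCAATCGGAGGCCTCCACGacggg
Hsp90b1: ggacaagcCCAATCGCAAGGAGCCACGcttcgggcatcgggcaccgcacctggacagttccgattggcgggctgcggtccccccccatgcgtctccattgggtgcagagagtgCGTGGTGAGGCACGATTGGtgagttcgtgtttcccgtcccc
Dnajc3: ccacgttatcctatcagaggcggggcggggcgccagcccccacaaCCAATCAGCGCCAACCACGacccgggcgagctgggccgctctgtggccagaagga

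The mitochondrial chaperonin is a chamber built of Hspd1 (HSP60) and closed by a lid of Hspe1 (HSP10), fed by the mitochondrial HSP70, Hspa9. All 3 genes were higher in PV than in SST IPs. Hspd1 was 237 (lowest), 252 (median) and 296 (highest) CPM in PV libraries and 155, 189, 209, 211 and 194 CPM in the 5 SST libraries. All PV libraries were above all SST libraries (log2 fold change 0.41 ± 0.11, adjusted p = 0.0158, 6 of 6), and Hspa9 showed no overlap either (0.48 ± 0.12, means 388 and 277 CPM). Hspe1 was 49.6 (lowest), 69.8 (median) and 80.5 (highest) CPM in PV and 65.0, 48.4, 46.0, 43.1 and 36.6 CPM in SST libraries. SST replicate 1 reached into the PV range, and the Hspe1 call (log2 fold change 0.50 ± 0.15, adjusted p = 0.0344, 6 of 6) was lost without PV replicate 3, 4 or 5 or SST replicate 2, 3, 4 or 6 (0.42 to 0.51). Hspe1 was also lower in vGluT2 than in Gad2 IPs of both regions (cerebrum -0.52 ± 0.16, cerebellum -0.68 ± 0.14). Hspa9 was higher in cerebellar than in cerebral vGluT2 IPs (0.37 ± 0.15, 4 of 5), a call that ended with the GC offset (0.31), with DESeq2's size factors in edgeR (0.37), with the mouse as a block (0.37) or without cerebellar vGluT2 replicate 2, 3, 4 or 5 or cerebral vGluT2 replicate 1, 2, 3, 5 or 6 (0.29 to 0.40). Named pseudogenes took few counts: 5 of Hspd1 together held 1195 counts over all libraries, 0.145% of those of Hspd1.

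Hspd1 and Hspe1 lie head to head on opposite strands of chromosome 1, with overlapping ends. The heat shock element, searched as GAANNTTCNNGAA and its reverse complement TTCNNGAANNTTC, was found in windows of 4 members (Hspd1, Hspe1, Dnajb6 and Hsph1) and in 0.603% of all windows. The stretch before the start of Hspe1 (chr1:55088053-55088082, + strand, inside Hspd1 and overlapping an Hspd1 exon) is shown because 1 pair of overlapping matches lies in the windows of both genes, and the Dnajb6 stretch (chr5:29735844-29735872, + strand, overlapping exons of Dnajb6 and Gm5129) because Dnajb6 levels separated cerebellar cell types. Capitals mark the matched letters, and neither stretch was tested for binding.
Hspe1: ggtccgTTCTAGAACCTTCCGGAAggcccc
Dnajb6: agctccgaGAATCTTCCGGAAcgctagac

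Small heat shock proteins and Bag3 differed between cell types and regions. Hspb8 and Bag3 encode partners: Hspb8 holds misfolded proteins, and Bag3 links it to HSP70 and hands the cargo to autophagy. Hspb8 (ENSMUSG00000041548.4, chr5:116408491-116422864, - strand) was 35.8, 26.4, 25.9, 16.8 and 28.4 CPM in the 5 cerebellar vGluT2 libraries and 3.49 (lowest), 4.59 (median) and 7.45 (highest) CPM in cerebral vGluT2 libraries. Bag3 (ENSMUSG00000030847.8, chr7:128523616-128546981, + strand) was 56.8, 37.0, 44.8, 51.3 and 34.7 CPM and 5.94 (lowest), 10.2 (median) and 12.8 (highest) CPM in the same groups. Both genes were far higher in every cerebellar than in every cerebral vGluT2 library (Hspb8 log2 fold change 2.40 ± 0.23, adjusted p = 7.28e-07, 5 of 5). The Bag3 test gave log2 fold change 2.14 ± 0.20, adjusted p = 4.99e-07, in 5 of 5 libraries.

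In Gad2 IPs Hspb8 was 20.5 (lowest), 23.1 (median) and 28.3 (highest) CPM in cerebellum and 8.99 (lowest), 11.4 (median) and 15.7 (highest) CPM in cerebrum. Bag3 was 38.5 (lowest), 41.0 (median) and 46.5 (highest) CPM and 19.2 (lowest), 22.2 (median) and 26.0 (highest) CPM. Again no cerebellar library overlapped the cerebral range (Hspb8 log2 fold change 0.99 ± 0.15, adjusted p = 5.18e-05, 6 of 6, and Bag3 log2 fold change 0.89 ± 0.11, adjusted p = 3.74e-06, 6 of 6). Within the cerebrum both were lower in vGluT2 than in Gad2 IPs (Hspb8 log2 fold change -1.28 ± 0.22, adjusted p = 0.000280, 6 of 6, and Bag3 log2 fold change -1.21 ± 0.18, adjusted p = 7.86e-05, 6 of 6). Within the cerebellum neither was called between vGluT2 and Gad2 IPs (Hspb8 0.16 ± 0.16, Bag3 0.07 ± 0.13).

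PV and SST IPs differed in the same pair. Bag3 was 48.4 (lowest), 55.03 (median) and 64.5 (highest) CPM in PV libraries and 14.9, 24.6, 24.8, 19.9 and 19.3 CPM in the 5 SST libraries. Hspb8 was 14.4 (lowest), 23.6 (median) and 28.2 (highest) CPM and 12.9, 10.9, 12.1, 7.08 and 8.14 CPM. The lowest PV library was above the highest SST library for each gene (Bag3 log2 fold change 1.42 ± 0.14, adjusted p = 7.49e-06, 6 of 6, and Hspb8 log2 fold change 1.148 ± 0.18, adjusted p = 0.000652, 6 of 6). Across the 6 control IP groups, which share libraries with the tests above, the mean of Bag3 ran from 9.83 (cerebral vGluT2) to 55.5 CPM (PV) and that of Hspb8 from 4.87 (cerebral vGluT2) to 26.7 CPM (cerebellar vGluT2).

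Hspb1 (HSP27; ENSMUSG00000004951.10, chr5:135887919-135889563, + strand) was highest, among control IPs, in cerebellar Gad2. Its level there was 10.5 (lowest), 13.7 (median) and 15.9 (highest) CPM. The 5 cerebellar vGluT2 libraries held 0.766, 0.343, 0.629, 0.184 and 0.486 CPM, and cerebral Gad2 libraries 0.668 (lowest), 1.13 (median) and 2.24 (highest) CPM. Each cerebellar Gad2 library exceeded each library of both other groups (cerebellar vGluT2 against Gad2 log2 fold change -4.79 ± 0.30, adjusted p = 4.53e-09, 5 of 5, and cerebellar against cerebral Gad2 log2 fold change 3.30 ± 0.28, adjusted p = 5.09e-08, 6 of 6). Among the genes of the separate chaperone list, Hspb3, another small heat shock protein, had a similar contrast (-4.62 ± 0.50 and 3.01 ± 0.28) and was in addition higher in cerebral vGluT2 than Gad2 IPs (2.90 ± 0.30). Cryab (αB-crystallin; ENSMUSG00000032060.10, chr9:50751325-50756636, + strand), abundant in oligodendrocytes, was low in all control IPs (means 5.28 to 14.3 CPM). It was lower in cerebellar than in cerebral IPs (Gad2 -1.153 ± 0.22, vGluT2 -0.67 ± 0.21) and higher in cerebellar vGluT2 than Gad2 IPs (0.80 ± 0.22), where adding HD libraries ended the call (0.28). The part of oligodendrocyte RNA in these Cryab values was not tested.

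**Figure D2:**
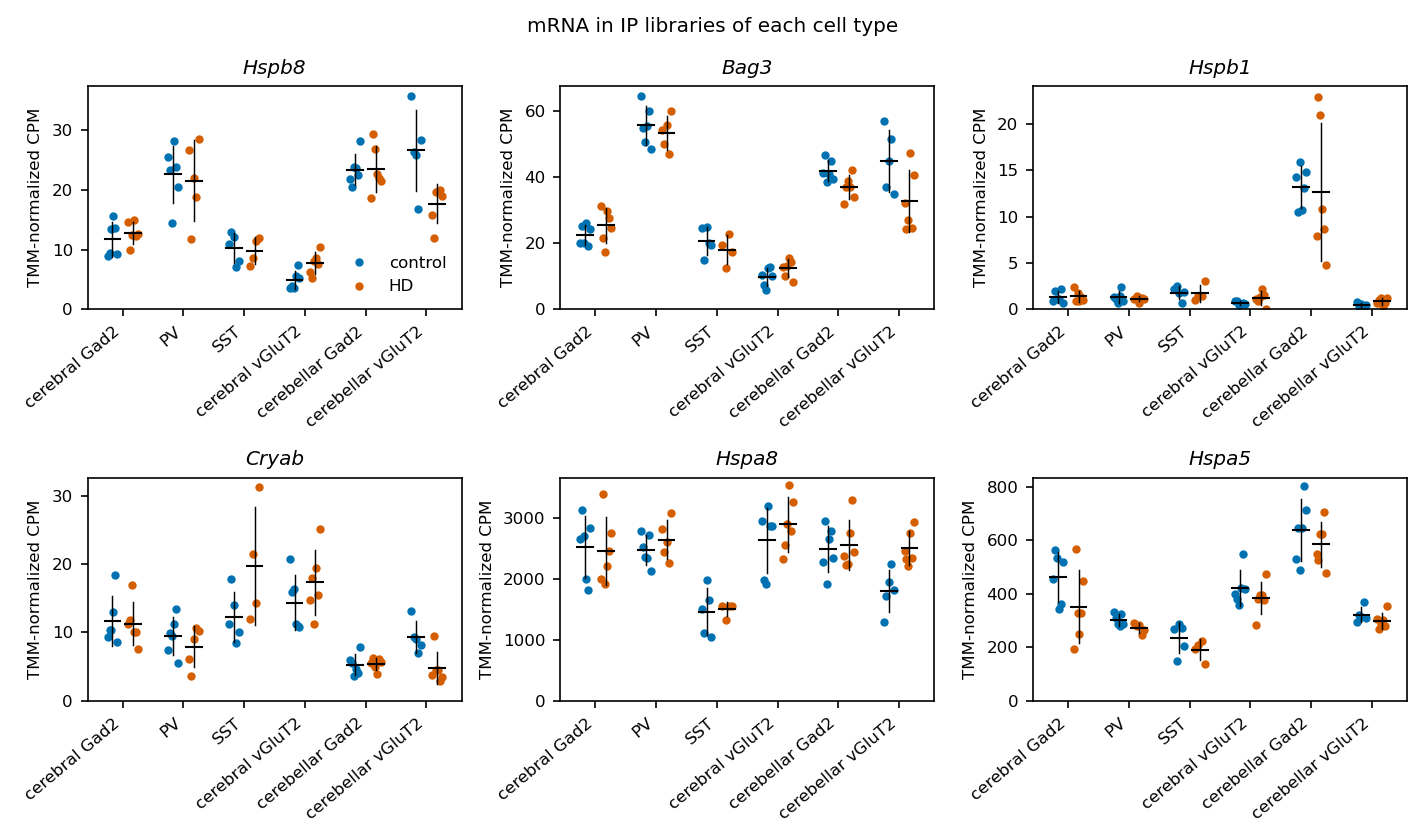
Level in TMM-scaled CPM (vertical) of Hspb8, Bag3, Hspb1, Cryab, Hspa8 and Hspa5 in each library of the 6 IP groups (horizontal), control in blue and HD in orange, with bars at the mean ± SD. Hspb8 and Bag3 are lowest in cerebral vGluT2 (control means 4.87 and 9.83 CPM), Hspb1 stands out in cerebellar Gad2 (13.2 CPM), and in cerebellar vGluT2 the HD libraries lie lower than controls for Cryab and Hspb8 and higher for Hspa8, with overlap.

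DNAJ genes, whose products choose the clients of HSP70, split by cell type and region. Dnajb6, known for holding back polyglutamine aggregation, was 313, 312, 395, 319.8 and 313 CPM in the 5 cerebellar vGluT2 and 127 (lowest), 163 (median) and 203 (highest) CPM in cerebellar Gad2 libraries. All vGluT2 libraries were higher (log2 fold change 0.95 ± 0.12, adjusted p = 7.98e-06, 5 of 5). In Gad2 IPs it was lower in cerebellum than in cerebrum (-0.36 ± 0.11), and in vGluT2 IPs higher (0.29 ± 0.12), a call lost with DESeq2's size factors (0.28) or without cerebellar vGluT2 replicate 2, 3, 4 or 5 or cerebral vGluT2 replicate 1, 2, 3 or 4 (0.21 to 0.31). Dnajc5 (CSPα), which guards synaptic vesicle proteins, was also higher in cerebellar vGluT2 than in cerebellar Gad2 IPs (631 ± 59.1 against 417 ± 29.99 CPM, SD, n = 5 and 6; log2 fold change 0.57 ± 0.09, adjusted p = 0.000109, 5 of 5) and than in cerebral vGluT2 IPs (0.32 ± 0.09). Dnajc6 (auxilin), which brings Hspa8 to clathrin coats, was higher in vGluT2 than in Gad2 IPs in cerebrum (0.54 ± 0.14) and in cerebellum (0.36 ± 0.13), the cerebellar call being lost without cerebellar Gad2 replicate 2 or cerebellar vGluT2 replicate 2 or 4 (0.26 to 0.33).

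Dnaja4 and Dnajb5 were high in cerebral vGluT2 IPs. Dnaja4 was higher there than in cerebral Gad2 IPs (0.37 ± 0.09) and than in cerebellar vGluT2 IPs, where it was lower by a wide margin (-1.16 ± 0.11), and within cerebellum it was lower in vGluT2 than Gad2 IPs (-0.88 ± 0.14). Dnajb5 was also lower in cerebellar than in cerebral vGluT2 IPs (-1.16 ± 0.13). It had a mean of 136 ± 21.6 CPM (SD, n = 6) in cerebral vGluT2 IPs and of 63.0 to 74.6 CPM in the other 5 control IP groups (cerebral vGluT2 against Gad2 log2 fold change 0.85 ± 0.13, adjusted p = 8.59e-05, 6 of 6). 

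Dnaja1 and Dnajb1, the DNAJ partners of cytosolic HSP70 in general folding and disaggregation, were lower in cerebellum in both cell types (Dnaja1 -0.68 ± 0.12 in Gad2 and -0.91 ± 0.14 in vGluT2 IPs, Dnajb1 -0.45 ± 0.13 and -0.61 ± 0.11). In Gad2 IPs Dnaja2 (-0.37 ± 0.11) and Dnajb4 (-0.37 ± 0.14) were lower in cerebellum as well, the Dnajb4 call ending when HD libraries were added (-0.14). Dnajb2 (0.54 ± 0.09), Dnajb11 (0.34 ± 0.10), Dnajb14 (0.47 ± 0.15) and the mitochondrial Dnaja3 (0.28 ± 0.09) were higher there. Within cerebellum Dnajb2 was lower in vGluT2 than in Gad2 IPs (-0.35 ± 0.12) and Dnaja2 higher (0.37 ± 0.13). The heat shock factor gene Hsf2 was higher too (0.43 ± 0.14). The calls of Dnaja2 and Hsf2 ended with the GC offset (0.24 and 0.28), and without cerebellar Gad2 replicate 2 or cerebellar vGluT2 replicate 3, 4 or 5 for Dnaja2 (0.30 to 0.33) and without cerebellar Gad2 replicate 2 or cerebellar vGluT2 replicate 4 or 5 for Hsf2 (0.35 to 0.39). Dnajc7, which can hold clients for both HSP70 and HSP90, Hsf1, the main heat shock factor, and the adaptors St13 and Stub1 were not called by edgeR as designed in any of the 5 comparisons. Each was called under at least 1 alternative, Dnajc7 by DESeq2 between PV and SST IPs and between regions of Gad2 IPs. Their control means were 160.2 to 279, 23.0 to 42.9, 107 to 243 and 122 to 241 CPM.

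The PV and SST comparison was the one in which all called members went in the same direction, with a median log2 difference of 0.26 over the 42 genes and -0.04 over all genes. Beside Bag3, Hspb8 and the mitochondrial genes, it took in cytosolic genes such as Hspa8, Stip1 and Hsp90aa1, while Hsp90ab1 was not called (0.30 ± 0.14). Hspa8 was 2124 (lowest), 2444 (median) and 2789.9 (highest) CPM in PV and 1111, 1502, 1989, 1662 and 1052 CPM in SST libraries. Stip1 (HOP), which bridges HSP70 and HSP90, was 268 (lowest), 294 (median) and 386 (highest) CPM and 114, 179, 209, 195 and 136 CPM. Neither gene's groups overlapped (Hspa8 log2 fold change 0.76 ± 0.15, adjusted p = 0.00284, 6 of 6, and Stip1 log2 fold change 0.93 ± 0.16, adjusted p = 0.000978, 6 of 6). Dnaja4 (0.76 ± 0.12), Hspa12a (0.45 ± 0.10), Dnajb1 (0.43 ± 0.11) and Hsp90aa1 (0.41 ± 0.11) were higher in PV without overlap, and Dnaja1 (0.41 ± 0.12) with overlap, its call being lost without PV replicate 3 or 4 or SST replicate 3, 4 or 6 (0.32 to 0.43). With HD libraries added the count became 25 (24 higher and 1 lower in PV), with 5637 of 14724 genes called in place of 2650 of 14596. Of 77 other chaperone and co-chaperone genes, 72 were tested, and 15 were higher and 2 lower in PV (median 0.21), among them the HSP90 co-chaperone Fkbp4 (0.85 ± 0.15). Of the 23 ER stress genes tested 3 were higher and 0 lower. Of 13 immediate early genes 0 were higher and 5 lower in PV (median -0.75), where 18.2% of all genes were called. Markers of other cells were higher in SST IPs: the sums of the 10 astrocyte markers, led by Slc1a2, were 1435 to 1969 CPM in PV and 1696 to 2885 CPM in SST libraries. Sums of 10 vascular markers, led by Vtn in 4 of 6 PV and by Rgs5 in 3 of 5 SST libraries, were 62.1 to 81.9 and 82.3 to 135 CPM, and oligodendrocyte markers were higher in SST IPs as well. None of them was at 0 throughout a group, and the part of glial and vascular RNA in the differences was not tested.

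IPs were also compared with control total RNA of the same region, which sets RNA on tagged ribosomes against RNA of the whole tissue. For each cell type, 3 control mice gave both an IP and a total RNA library. The fits pooled total RNA of all lines and had no term for mouse or line, so that libraries were treated as independent. Cryab was far lower in IPs of all 6 cell types, and Hspb1 in 5 of 6. Among the other members, more were called higher than lower in the IPs of every cell type. edgeR called 35 of 42 in cerebral Gad2 (29 higher and 6 lower, 62.6% of all genes called), 34 in PV (26 and 8, 69.2%), 31 in SST (19 and 12, 61.9%) and 37 in cerebral vGluT2 IPs (32 and 5, 64.0%). In cerebellum it called 34 in Gad2 (31 and 3, 57.1%) and 26 in vGluT2 IPs (24 and 2, 56.7%). The median log2 difference of the 42 genes, in the same order, was 0.51, 0.41, 0.23, 0.71, 0.66 and 0.41, with all-gene medians between -0.02 and 0.03. In the 4 cerebral comparisons log2 differences were also lower for transcripts of higher GC content (Spearman correlation over genes -0.52 to -0.45, the libraries being shared by all genes), against -0.10 and -0.03 in cerebellum. The part of base composition in the members' values was not tested beyond the GC offset, which gave 36, 30, 28, 38, 38 and 34 called members, beside 9617, 10724, 9444, 9876, 9411 and 9635 genes of all kinds in place of 9260, 10267, 9194, 9488, 8214 and 8116.

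Cryab had log2 differences between IP and total RNA of -3.43 ± 0.20 (cerebellar Gad2) to -2.49 ± 0.19 (cerebral vGluT2). No IP library overlapped the total RNA range in any of the 6 cell types. Sums of 10 oligodendrocyte markers were lower in control IPs too. In cerebrum they were 343 to 4801 CPM in IPs, highest in SST, and 5254 to 7291 CPM in total RNA. In cerebellum they were 610 to 1522 and 4166 to 5441 CPM. Sums of 10 astrocyte markers were 346 to 2885 CPM in cerebral IPs and 4370 to 6226 CPM in cerebral total RNA. The part of glial RNA in the Cryab and Hspb1 values was not tested. For Hspb1 the log2 difference was -4.04 ± 0.36 in cerebellar vGluT2 and -3.46 ± 0.24 to -1.98 ± 0.28 in the 4 cerebral cell types. In cerebellar Gad2 IPs it was instead higher (log2 fold change 0.80 ± 0.22, adjusted p = 0.00480, 6 of 6), although against total RNA of the Gad2 line alone the difference was 0.57 and not called. Hspb8 was lower than in total RNA in cerebral vGluT2 (log2 fold change -2.24 ± 0.21, adjusted p = 1.01e-08, 6 of 6), SST (-1.05 ± 0.20), cerebral Gad2 (-0.96 ± 0.18) and cerebellar Gad2 IPs (-0.29 ± 0.12). The cerebral Gad2 call ended against same-line total RNA (-0.58), and the cerebellar Gad2 call ended with the GC offset (-0.21) and without any 1 of 11 of its 13 libraries (-0.29 to -0.23). In PV and cerebellar vGluT2 IPs it was near its total RNA level (0.10 ± 0.16 and -0.17 ± 0.17). Bag3, its partner, was higher than in total RNA in PV IPs (log2 fold change 1.82 ± 0.08, adjusted p = 2.65e-13, 6 of 6) and lower in cerebral vGluT2 IPs (log2 fold change -0.81 ± 0.13, adjusted p = 2.39e-05, 6 of 6).

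Among members higher in IPs, Hsp90aa1 had log2 differences of 1.99 (cerebral Gad2), 2.17 (PV), 1.78 (SST) and 2.36 (cerebral vGluT2), and of 1.09 and 0.88 in cerebellar Gad2 and vGluT2 IPs. The call in cerebral Gad2 ended against same-line total RNA (1.52). The largest rise in PV and SST IPs was that of Hspa4l (2.29 ± 0.35 in PV, and 1.84 ± 0.36 in SST with overlap), which the GC offset brought to 1.73 and 1.23, both called. Per kilobase, Hsp90aa1 ranked above Stip1 in every IP group and in 3 of the total RNA groups, and below it in total RNA of the PV, SST and cerebral vGluT2 lines (78.6, 87.0 and 85.5 CPM/kb, against 116, 106 and 110.5 CPM/kb). In cerebral total RNA of the Gad2 line, Hsp90aa1 was 1095 CPM in replicate 1 and 250 and 248 CPM in replicates 2 and 3. Replicate 1 thus largely set the mean behind its rank there. The mitochondrial Hspa9 and Hspd1 were higher in IPs of all 6 cell types (Hspa9 0.96 to 2.04, Hspd1 0.85 to 1.83). Hspa5 was higher in cerebellar Gad2 (1.38 ± 0.14), cerebral Gad2 (1.20 ± 0.14), cerebral vGluT2 (1.06 ± 0.14) and PV IPs (0.71 ± 0.13), and not called in SST and cerebellar vGluT2 IPs (0.37 ± 0.16 and 0.32 ± 0.14). Of the ER stress list, 14 genes were higher and 1 lower in cerebellar Gad2 IPs than in total RNA, of 23 tested (median 0.47, beside 57.1% of all genes called).

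The HD comparisons ask whether these chaperone transcripts differ in neurons that carry expanded huntingtin. In IPs of all 6 cell types edgeR called 0 of the 42 genes, and few genes of any kind outside cerebellar vGluT2. In cerebral Gad2 IPs 3 members had an unadjusted p under 0.05 and DESeq2 called 0, where edgeR called 0.0279% and DESeq2 0.523% of all genes tested. In PV IPs these numbers were 1 and 0 (0.0340% and 0.287% of all genes), in SST IPs 1 and 0 (0% and 0.0136%), in cerebral vGluT2 IPs 1 and 0 (0.00697% and 0.216%) and in cerebellar Gad2 IPs 1 and 0 (0.0142% and 0.156%). In cerebellar vGluT2 IPs 6 members had an unadjusted p under 0.05 and DESeq2 called 2, where edgeR called 2.11% and DESeq2 5.04% of genes. The median log2 fold change of the 42 genes lay between -0.08 (cerebral Gad2) and 0.02 (cerebellar vGluT2), and that of all genes between -0.02 and 0.01.

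**Figure D3:**
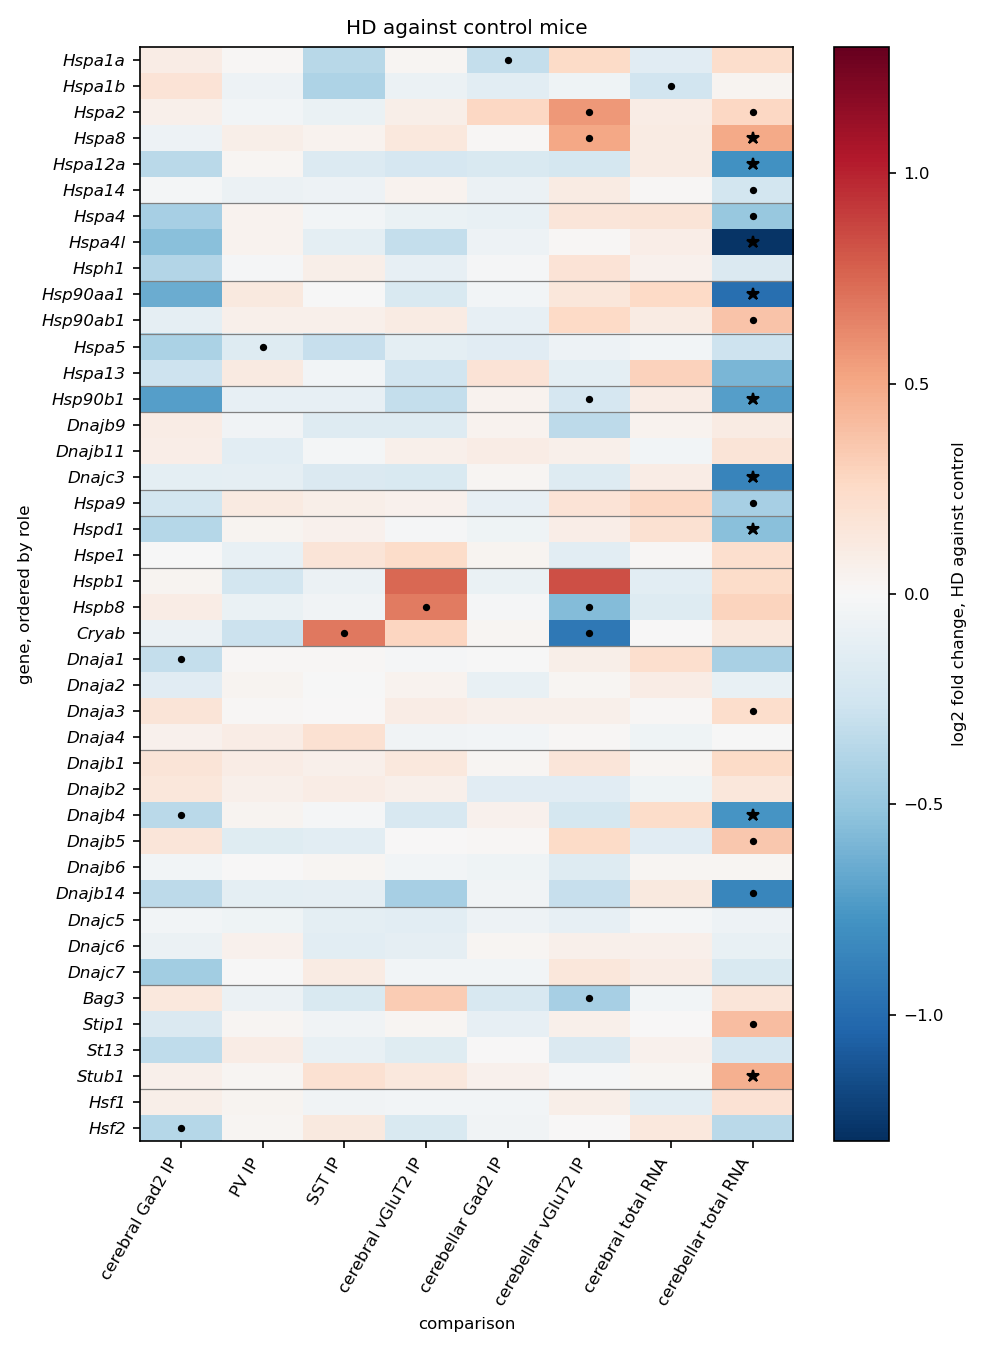
Heat map of the log2 fold change, HD against control, of the 42 genes (vertical, grouped by role) in the 6 IP and 2 total RNA comparisons (horizontal). A star marks an adjusted p of 0.05 or less and a dot an unadjusted p under 0.05: the 9 stars all lie in cerebellar total RNA, and the IP column with the most dots (6) is cerebellar vGluT2.

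In cerebellar vGluT2 IPs the member nearest to the threshold was Hspa8 (ENSMUSG00000015656.17, chr9:40800984-40810087, + strand). Its level was 1296, 1718, 1951, 2244 and 1822 CPM in the 5 control libraries and 2211 (lowest), 2395 (median) and 2930.1 (highest) CPM in the 6 HD libraries. Control replicate 4 was just above the lowest HD library, and all other HD libraries were above all controls. Hspa8 missed the threshold in edgeR (log2 fold change 0.50 ± 0.13, adjusted p = 0.0740, higher in 6 of 6) and passed it in DESeq2 (0.49). It also passed in edgeR with the GC offset (0.46), where 4.10% of genes were called.

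Cryab went the other way in these IPs. Control libraries held 13.2, 9.36, 9.10, 6.95 and 8.21 CPM and HD libraries 2.92 (lowest), 4.15 (median) and 9.48 (highest) CPM. HD replicate 2 was the only HD library within the control range. The difference was log2 fold change -0.93 ± 0.28, adjusted p = 0.112 (lower in 5 of 6), DESeq2 called it (-0.94), and so did edgeR without HD replicate 2 (-1.25). Hspb8 was 11.9 (lowest), 19.3 (median) and 19.96 (highest) CPM in HD libraries, beside the control values given above. Its control replicate 4 lay among the HD values and the others above them (log2 fold change -0.57 ± 0.18, adjusted p = 0.151, lower in 6 of 6). Bag3 was 24.2 (lowest), 29.6 (median) and 47.1 (highest) CPM in HD libraries, with wide overlap (log2 fold change -0.43 ± 0.19, adjusted p = 0.302, lower in 5 of 6).

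Hspa2 was 21.3 (lowest), 24.5 (median) and 29.5 (highest) CPM in HD cerebellar vGluT2 libraries. Control replicate 3 lay among these values and the other 4 below them (log2 fold change 0.56 ± 0.18, adjusted p = 0.134, higher in 6 of 6), and without that control library edgeR called Hspa2 (0.74). Hsp90b1 had means of 378 CPM in HD and 451 CPM in control libraries (log2 fold change -0.22 ± 0.10, adjusted p = 0.286, lower in 6 of 6). The summed level of 8 granule cell markers, led by Cbln3, was 6856 to 9220.2 CPM in HD and 9876 to 14272 CPM in control libraries, and that of 10 oligodendrocyte markers, led by Mbp, 431 to 824 and 609.7 to 1026 CPM. No marker of either list was at 0 in every library of a group, and their part in the values of these members was not tested. In bulk samples such as these, fewer cells of a type and less RNA per cell cannot be told apart. Of 77 other chaperone genes 70 were tested, and 1, the HSP90 co-chaperone Chordc1, was called as lower in HD (-0.69 ± 0.13). No gene of the ER stress and immediate early lists was called by edgeR in HD IPs of any cell type, and of the clock and cold-inducible list only Hlf, a clock output gene, was called, as lower in cerebellar vGluT2 IPs (-0.66 ± 0.13).

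PV, SST, cerebral vGluT2 and cerebellar Gad2 IPs gave 1 member each at unadjusted p under 0.05, none of which passed the correction. In cerebral vGluT2 IPs this was Hspb8, at 5.26 (lowest), 7.88 (median) and 10.5 (highest) CPM in HD libraries beside the control values given above (log2 fold change 0.67 ± 0.23, adjusted p = 0.666, higher in 6 of 6). The ranges overlapped, and all 6 HD libraries lay above the control median. In SST IPs it was Cryab, at 12.02, 21.5, 14.3 and 31.2 CPM in the 4 HD and 17.8, 11.2, 14.0, 8.39 and 10.01 CPM in the 5 control libraries. HD replicates 2 and 4 exceeded every control and the other 2 lay within the control range (log2 fold change 0.69 ± 0.27, adjusted p = 0.9996, higher in 4 of 4). HD replicates 2 and 4 also had higher sums of 10 oligodendrocyte markers (3503 and 3322 CPM) than the other 2 HD libraries (2655 and 2349 CPM). Control sums were 2783 to 4801 CPM, with a higher median than in HD (3310 against 2988 CPM). HD replicate 4 had the highest slope of its deviation on transcript GC of all SST IPs (0.57 log2 units per 10 points of GC, controls -0.31 to 0.32). The part of oligodendrocyte RNA in this value was not tested, and with the GC offset the log2 fold change was 0.64. In PV IPs it was Hspa5 (means 273 and 303 CPM, log2 fold change -0.17 ± 0.07, adjusted p = 0.9999, lower in 5 of 5), and in cerebellar Gad2 IPs Hspa1a (means 11.8 and 14.5 CPM, log2 fold change -0.31 ± 0.14, adjusted p = 0.9999, lower in 5 of 6). Hspb1, the small heat shock protein of cerebellar Gad2 IPs, was 4.80 (lowest), 9.72 (median) and 22.9 (highest) CPM in their HD libraries, a spread that covered the control range on both sides (log2 fold change -0.09 ± 0.31, adjusted p = 0.9999, lower in 4 of 6).

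Cerebral Gad2 IPs, with their striatal markers, had Hsf2 (log2 fold change -0.37 ± 0.17, adjusted p = 0.536, lower in 5 of 6), Dnajb4 (-0.35 ± 0.15, lower in 6 of 6) and Dnaja1 (-0.31 ± 0.14, lower in 6 of 6) at unadjusted p under 0.05. The lowest log2 fold changes there, of Hsp90b1 (-0.72 ± 0.39) and Hsp90aa1 (-0.65 ± 0.40), had wide errors. Hsp90aa1 ran over 616 (lowest), 1732 (median) and 1960.3 (highest) CPM in control and 428 (lowest), 861 (median) and 1807 (highest) CPM in HD libraries. Control replicate 6 and HD replicates 3, 5 and 6 were low and the other libraries high, in both genotypes. Each HD library lay below the control library of the same number, narrowly for numbers 1, 2 and 4. With the replicate number as a block, 9 members had an unadjusted p under 0.05 and 0 were called. Over all genes, log2 fold changes in these IPs were higher for transcripts of higher GC content (Spearman 0.51, with medians of -0.26 in the 25% of genes lowest in GC and 0.13 in the 25% highest). Sums of 10 striatal projection neuron markers, led by Ppp1r1b in 5 of 6 control and all HD libraries, were 5879 to 7734 CPM in control and 3616 to 5818 CPM in HD libraries. With the GC offset 0 members had an unadjusted p under 0.05, with log2 fold changes of -0.10 for Hsf2, -0.04 for Dnajb4 and -0.04 for Dnaja1, and 20 genes of all kinds were called in place of 4. The part of the striatal markers in the members' values was not tested.

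Whether the HD effect on a chaperone gene differs between cell types or regions was tested directly, as an interaction of genotype with cell type or region. These tests reuse the libraries of the HD comparisons, 2 of the 4 compare regions of the same mice, and edgeR called 0 members in all 4. Between cerebellar vGluT2 and Gad2 IPs 5 members had an unadjusted p under 0.05 and DESeq2 called 0 (0.107% of all genes called by edgeR, 0.544% by DESeq2). Their differences in HD effect on the log2 scale were -0.98 ± 0.35 for Cryab, -0.58 ± 0.23 for Hspb8, -0.29 ± 0.13 for Hsp90b1, 0.46 ± 0.18 for Hspa8 and 0.54 ± 0.17 for Hspa1a. Between cerebellar and cerebral vGluT2 IPs 4 members had an unadjusted p under 0.05 (0.323% of all genes called by edgeR). Hspb8, with a positive HD value in cerebrum and a negative one in cerebellum, had a difference of -1.23 ± 0.30 (adjusted p = 0.0936, with 6 of 6 HD libraries above and 6 of 6 below their control medians). DESeq2 called it alone of the 42 (-1.24, 0.888% of genes), and edgeR did without control cerebellar vGluT2 replicate 4 or control cerebral vGluT2 replicate 5 (-1.39 to -1.36). Cryab (-1.20 ± 0.37), Bag3 (-0.75 ± 0.29) and Hspa2 (0.51 ± 0.23) were the others, and Cryab was called without HD cerebellar vGluT2 replicate 2 (-1.52). With the mouse as a block edgeR called 0 members, 5 had an unadjusted p under 0.05 and Hspb8 had a difference of -1.26. Between cerebellar and cerebral Gad2 IPs 0 members had an unadjusted p under 0.05 and DESeq2 called 0 (0% and 0.145% of all genes by edgeR and DESeq2), and with the mouse as a block edgeR called 0, with 2 at an unadjusted p under 0.05. Between cerebral vGluT2 and Gad2 IPs the numbers were 0 and 0 (0% and 0.00692%).

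Total RNA shows the same genes in whole tissue, neurons and glia together. In cerebral total RNA, with 12 HD and 13 control libraries of 4 lines, edgeR called 0 members (0.645% of all genes), 1 had an unadjusted p under 0.05 and DESeq2 called 0 (1.43%). The single gene was Hspa1b (means 6.62 and 7.93 CPM, log2 fold change -0.25 ± 0.11, adjusted p = 0.670, lower in 10 of 12). In cerebellar total RNA, with 7 HD and 7 control libraries of the Gad2 and vGluT2 lines, it called 9 members (2 higher and 7 lower in HD), where 24.5% of all genes were called, and DESeq2 called 12 (34.4% of genes). The members' share was below that of all genes. Hspa8 and the ubiquitin ligase gene Stub1 (CHIP), which sends chaperone clients to the proteasome, were higher in HD. Hspa4l, Hsp90aa1, Dnajc3, Hspa12a, Dnajb4, Hsp90b1 and Hspd1 were lower.

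Values are given by line, since the lines were pooled in the fit. Hspa4l was 169.8, 176, 160.3 and 213 CPM in control and 72.3, 41.2, 34.5 and 45.5 CPM in HD total RNA of the vGluT2 line. Hsp90aa1 was 627, 736, 922 and 1000.1 CPM and 538, 212, 234 and 225 CPM. For both genes the 4 HD libraries lay below the 4 controls, HD replicate 1 being the highest of them. Hspa8 was 768, 952, 1576 and 1092 CPM in control and 1921, 1638, 2198 and 1830.1 CPM in HD libraries, all HD libraries being above all controls. In the Gad2 line Hsp90aa1 was 602, 745 and 395 CPM in control and 328, 352 and 812 CPM in HD libraries. There HD replicate 3 was the highest of all 6 libraries and the genotypes overlapped.

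Over both lines the log2 fold changes were -1.27 ± 0.36 (adjusted p = 0.0329, lower in 6 of 7) for Hspa4l, -0.98 ± 0.34 (adjusted p = 0.0476, lower in 6 of 7) for Hsp90aa1 and 0.49 ± 0.15 (adjusted p = 0.0358, higher in 7 of 7) for Hspa8. The other called members ran from -0.85 ± 0.26 for Dnajc3 to -0.54 ± 0.19 for Hspd1, with 0.46 ± 0.15 for Stub1, and the genotypes overlapped for all 9. In the vGluT2 line alone edgeR called 26 members (10 higher and 16 lower, 51.7% of all genes), and with the offset for GC content 13 (7 higher and 6 lower, beside 4766 of 14630 genes). In the Gad2 line alone edgeR called 0, with 0 at an unadjusted p under 0.05 (0% of all genes), and Hsp90aa1 and Hspa8 had log2 fold changes of -0.20 and 0.26. DESeq2 was not run on single lines or on their interaction. An interaction of genotype with line called 0 members in edgeR, with 16 at an unadjusted p under 0.05, and 1.64% of all genes. 

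Leaving out single libraries moved the count of called members in pooled cerebellar total RNA over a range from 0 to 22. It was 0 without Gad2-line control replicate 2 or HD replicate 2, or without any vGluT2-line control or HD replicate 2, 3 or 4, and 1 (Hspa12a) without vGluT2-line HD replicate 1. It was 14 without Gad2-line control replicate 1 and 22 without Gad2-line HD replicate 3.

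Base composition moved with these libraries. Over all genes the HD log2 fold change in cerebellar total RNA was higher for transcripts of higher GC content (Spearman 0.66, with medians of -0.59 in the 25% of genes lowest in GC and 0.30 in the 25% highest). The slope of a library's deviation on GC, in log2 units per 10 points of GC, was -0.60 to -0.12 in control and 0.22 to 0.59 in HD libraries of the vGluT2 line, and -0.42 to 0.21 and -0.49 to 0.51 in the Gad2 line. With the GC offset edgeR called 7 members, 4 higher and 3 lower in HD, where 21.6% of all genes were called. Hspa8 (0.43), Hspa4l (-0.60), Dnajc3 (-0.38) and Hspa12a (-0.74) were called with and without the offset. Stub1 (0.18), Hsp90aa1 (-0.54), Dnajb4 (-0.10), Hsp90b1 (-0.28) and Hspd1 (-0.32) were called only without it. The 3 other genes called with the offset were higher in HD. Cell type markers moved too. In the Gad2 line, sums of 8 granule cell markers, led by Cbln3, were 4877 to 6377 CPM in control and 3924 to 4845 CPM in HD libraries, and sums of 10 oligodendrocyte markers, led by Mbp, 4166 to 5005 and 3234 to 3604 CPM. In the vGluT2 line both were lower in HD with overlap (granule cell 4707 to 6598 and 3715 to 5383 CPM, oligodendrocyte 4587 to 5441 and 3757 to 5077 CPM). There, sums of 8 Purkinje cell markers were 4540.3 to 5149 CPM in control (led by Itpr1) and 2873 to 3241 CPM in HD libraries (led by Car8 in 3 of 4), although Pcp2, a Purkinje cell gene, had a higher mean in HD (472 against 371 CPM). Sums of 6 thalamic and glutamatergic neuron markers, led by Slc17a7, were 922 to 1065 CPM in control and 1407 to 1597 CPM in HD libraries. Sums of 8 cortical interneuron markers, led by Pvalb, were 2069 to 2467 and 2522 to 3042 CPM. Pvalb itself had a higher mean in HD (1364 against 890 CPM), while Gad1, of the same list, had a lower one (411 against 505 CPM). Gad2 was lower in HD too (46.7 against 123 CPM). Microglia markers were higher in HD libraries of this line as well. In the Gad2 line, Purkinje cell sums were 4169 to 4965 CPM in control and 3232 to 4188 CPM in HD libraries. Thalamic and glutamatergic sums there were 1123 to 1186 and 949 to 1257 CPM, and interneuron sums 2262 to 2806 and 1921 to 2708 CPM. None of these markers was at 0 throughout a group, and the part of markers in the called members was not tested. Of 77 other chaperone genes 12 were higher and 12 lower in HD, of 74 tested. Of the 23 ER stress genes tested, 5 were higher, Xbp1 (0.49 ± 0.13) among them, and 0 lower, beside 24.5% of all genes called.

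**Figure D4:**
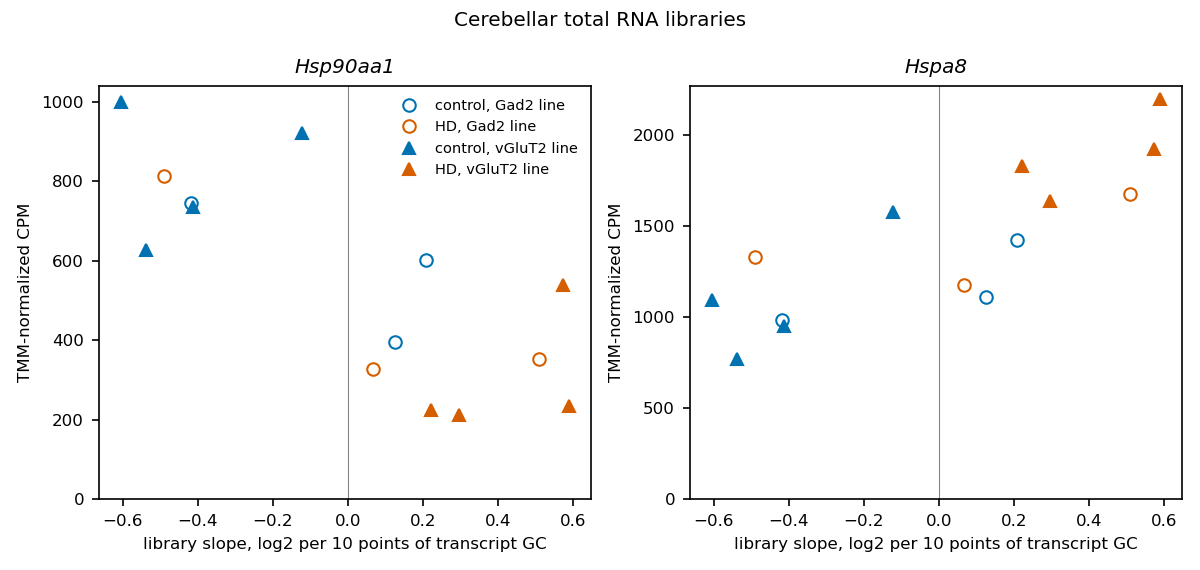
Level of Hsp90aa1 and Hspa8 (vertical, TMM-scaled CPM) in each cerebellar total RNA library against the library's slope on transcript GC (horizontal, log2 units per 10 points), with control in blue and HD in orange, circles for the Gad2 line and triangles for the vGluT2 line. The vGluT2-line controls lie at slopes of -0.60 to -0.12 and the HD libraries of that line at 0.22 to 0.59, while both genotypes of the Gad2 line overlap along the horizontal axis.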

How the data were processed

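Stranded mRNA libraries were made from anti-HA IPs and from total RNA (input) of 1 cerebral or cerebellar hemisphere per mouse. The authors ran nf-core/rnaseq 3.0 on GRCm38, which aligns with STAR and quantifies with Salmon, and deposited estimated counts per gene (expected counts, not normalized), with 3 HD libraries re-sequenced. 8.57% of values are not whole, and counts were rounded. Gene lengths, GC and positions came from GENCODE M21, which matched 55141 of 55401 genes. The 92 spike-ins were left out.

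Genes that code for protein were tested where their mean count was over 10, with edgeR 4.0.16 (TMM scaling, quasi-likelihood F test; R 4.3.3), adjusted by Benjamini-Hochberg over all genes tested and called at 0.05. Standard errors are the log2 fold change over the square root of F. Total RNA fits for HD pooled lines with Cre line as a covariate. Alternatives were DESeq2 1.42.0, its size factors in edgeR, no filter on low counts, replicate number or mouse as a block, single Cre lines, HD libraries added to control comparisons with genotype as a covariate, same-line total RNA only, and leaving out single libraries. A GC offset per library (a lowess of its deviation on transcript GC), the line by genotype interaction and the mouse as a block in interactions of genotype with region were chosen after seeing the data. The tools were tested on simulated counts with changes added to chosen genes. A larger share of DESeq2's calls than of edgeR's fell on unchanged genes, above its nominal rate, and the limit set for this share was widened for DESeq2 after its first run. Tables and figures used Python 3.11.15 with pandas 2.3.3 and matplotlib 3.10.9.

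The 42 genes, and the lists of markers (oligodendrocyte, astrocyte, microglia, vascular, thalamic and glutamatergic neuron, cortical interneuron, striatal projection neuron, Purkinje and granule cell), other chaperones, ER stress, clock and cold-inducible and immediate early genes, were chosen with earlier results of these data known. Values of the microglia list, and some of the oligodendrocyte list, are not reported here. Any of the 42 may be named, and each one called is named or counted. Members with large changes get full values, though not in every comparison. From other lists, called genes with large changes are named, at most 5 per comparison. Total counts per library had a median of 35866725. Pairs of replicates (201) differed by 6.75 to 616 in chi-square per degree of freedom, so that none is a copy of another. Cerebral and cerebellar IPs of the same mouse (23 pairs) correlated at -0.36 to 0.65 after removal of group means (median 0.13), and 8 of 23 correlated best with their own mouse.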

Additional observations from a re-analysis of the deposited data

Results flagged for a closer look

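In 6 of the 58 groups of 4 or more libraries whose values are printed for a gene, 1 library stood apart: its gap to the nearest other library was a large part of the whole range of its group (Dixon's criterion at 95%). For independent groups of normally distributed values, chance alone gives about 1 in 20. The groups here share libraries and were taken because their values are printed, so that their number cannot be set against that rate. Cryab in HD cerebellar vGluT2 IPs: replicate 2 was at 9.477 CPM, the other libraries at 2.92 to 4.51 CPM. Dnajb6 in control cerebellar vGluT2 IPs: replicate 3 was at 395.2 CPM, the other libraries at 312 to 319.8 CPM. Dnajc3 in control cerebral Gad2 IPs: replicate 2 was at 52.6 CPM, the other libraries at 40.4 to 44.3 CPM. Hsp90aa1 in HD vGluT2-line cerebellar total RNA: replicate 1 was at 538.2 CPM, the other libraries at 212 to 234 CPM. Hspa2 in control cerebral vGluT2 IPs: replicate 4 was at 71.16 CPM, the other libraries at 46.6 to 55.6 CPM. Hspd1 in control PV IPs: replicate 3 was at 296.2 CPM, the other libraries at 237 to 258 CPM. Each of these libraries was the highest of its group for the gene named.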

How the results depend on the processing

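Of 24 results that count called members, 372 of the values under alternatives stayed within 1.5 times of the count given in the report, and 25 did not. Of the values for single named genes, 2601 stayed on the same side of the threshold with the same direction, 191 were no longer called, 16 became called and 3 changed sign.

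In cerebellar vGluT2 IPs the HD count went from 0 to 2 with DESeq2, to 1 with the GC offset and to 0 to 1 without single libraries (1 without control replicate 3, Hspa2, or HD replicate 2, Cryab). In cerebellar total RNA it went from 9 to 0 in the Gad2 line alone, with or without the GC offset (0), to 26 in the vGluT2 line alone (13 with the GC offset) and to 0 to 22 without single libraries. The difference in HD effect between cerebellar and cerebral vGluT2 IPs went from 0 to 1 with DESeq2 and to 0 to 1 without single libraries. With HD libraries added, the control counts were 16 for cerebral vGluT2 against Gad2 (6008 of 14477 genes called, 4304 of 14433 as designed) and 25 for PV against SST IPs. The cause was not tested.

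3 small differences between IPs and total RNA changed sign, none of them called in the report. Hspb8 in PV IPs was -0.044 against same-line total RNA. With the GC offset, Hspa5 in SST IPs was -0.041 and Hspb8 in cerebellar vGluT2 IPs 0.014. The cause was not tested.

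The titles of the 3 re-sequenced HD libraries carry separate numbers, so that their replicate numbers were assigned. In cerebellar Gad2 and cerebral vGluT2 IPs, number 6 was taken from the same mouse's library of the other region. In PV IPs the free number 4 was used. With the replicate number as a block (replicate block), edgeR called 0 members in all 6 HD IP comparisons. The members at an unadjusted p under 0.05 then numbered 9 (cerebral Gad2), 0 (PV), 0 (SST), 5 (cerebral vGluT2), 2 (cerebellar Gad2) and 5 (cerebellar vGluT2), against 3, 1, 1, 1, 1 and 6 in the report, and with the GC offset 0, 0, 1, 3, 0 and 6. DESeq2, its size factors and no filter on low counts moved these numbers by at most 1. In cerebral total RNA the number went from 1 to 0 with the GC offset. HD and control libraries of the same number (32 pairs) correlated at -0.42 to 0.62 (median 0.11), and 10 correlated best with their own number. In Gad2 IPs the median was 0.56 in cerebrum and 0.43 in cerebellum, with 4 and 4 of 6 pairs over 0.1 and 3 and 4 best with their own number. In cerebral vGluT2 IPs the median was 0.24, with 4 of 6 pairs over 0.1 and 1 best with its own number. With the mouse as a block, 21 members were called between regions in Gad2 and 21 in vGluT2 IPs, with Hspa13 added in Gad2 and Hspa4l in place of Hspa9 in vGluT2 IPs. In the interactions of genotype with region it called 0 members.

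Single libraries were not left out in comparisons of 6 against 6 libraries of control cell types or regions and in 2 of the 4 interactions. Groups of 3 to 6 libraries limit what can be called: for Hspb8, standard errors of the HD effect in IPs ran from 0.12 to 0.23 on the log2 scale, so that small effects can be missed. The 0 counts in HD IPs therefore do not show that levels were the same. Genes at a low level, such as Hspb1 outside cerebellar Gad2 IPs, carry wide errors.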
